A study of Homo sapiens with 96 samples.

Results

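The sites described here are the A-to-I editing sites that the deposited list of K562 cells places in exons other than 3' UTRs. They were chosen by the genomic element given in the list (5' UTR, CDS or lncRNA exon), whether or not the site was already known to editing databases, and number 211 of the 4149 listed sites. Of these, 145 were listed in 5' UTRs, 34 in coding sequence (CDS) and 32 in exons of long non-coding RNAs (lncRNAs). K562 is an established human leukemia cell line, and strand-specific RNA-seq after removal of ribosomal RNA was made from 80 samples of the parental line and 16 samples of derivative lines. The 96 samples covered 93 conditions, 90 of them with 1 sample, so each condition is mostly a single measurement. The value for each site and sample was an editing level, a fraction from 0 to 1 of the reads that carry the edited base, and the list gives no read depth behind it. A value of 0 was therefore taken as no level recorded, and "found" means a level above 0.

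The samples compared below were of 3 kinds. In the first, parental cells were treated for 6 h with DMSO, Etoposide, SN-38, Talazoparib or Cyclophosphamide and then with a transcription inhibitor, Actinomycin_D or Alpha Amanitin, with 7 samples at 0 h of the inhibitor and 20 samples at 1 to 6 h. In the second, parental cells received 1 drug for 6 to 48 h, with 5 samples of Imatinib, an inhibitor of the BCR-ABL kinase, and 6 of the vehicle DMSO, beside samples named for Etoposide, a topoisomerase inhibitor, and Romidepsin, a histone deacetylase inhibitor. In the last kind, derivative lines were given doxycycline or water in 8 samples each. These lines were AsiSI-overexpression (4 and 13 days), Cas9_overexpression (2 days), LINE_overexpression (2 days), CSB_shRNA_KD (2 days), LIG3_shRNA_KD (8 days) and MRE11A_shRNA_KD (5 and 8 days), all made by stable lentiviral transduction. The remaining samples, used for how often sites were found and at what level, were parental cells: untreated, given Rapamycin or Torin1 (3 and 6 h), Romidepsin (3 h), DMSO (2 h), or Actinomycin_D or Alpha_Amanitin alone (2 and 6 h), given a second drug (DMSO, Talazoparib, Mirin, SN-38 or Etoposide) after 3 h of DMSO or, except for the DMSO one, of AZ-20_KU-60019_NU7441, or washed out for 0, 2 and 6 h after DMSO, SN-38 or Etoposide. The list holds editing levels and no expression values, so the identity of the cells was not checked by marker genes, and fewer transcripts or fewer reads of a host gene cannot be told apart from less editing where a site was not found.

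ADAR enzymes deaminate adenosine to inosine in double-stranded RNA, and inosine is read as guanosine by the ribosome and by sequencers. Most editing in human transcripts lies in introns and 3' UTRs, where inverted repeats fold back on each other, and the list was made after sites inside annotated repeats had been removed. Editing of coding sequence can change an amino acid, which is called recoding, and a few such sites, in glutamate receptors among others, are conserved across mammals.

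The sequences of the sites that the results turn on are given first, each as 29 bases of the transcribed strand from GRCh38 (hg38), with the edited adenosine in capitals. Sites of the same gene outside coding sequence carry letters from the most to the least recurrent. The first 5 were listed as 5' UTR, but GENCODE 44 places each of them in an exon of a transcript without a coding region, and in an intron of the canonical transcript. They are shown because they were the 5 of that class found most often.
SSR4 (chrX:153795845-153795873, plus strand): gagaaggctaaggcAaggtcctttctctc
CD164 A (chr6:109372543-109372571, minus strand): ggatggatggaagtAtgtacaacaatgct
CD164 B (chr6:109372604-109372632, minus strand): aatattttcctgtaAgattttctcagcat
MRPS22 A (chr3:139355220-139355248, plus strand): gtcacttagaggcaAgtgactttgagatc
MRPS22 B (chr3:139353646-139353674, plus strand): ccatacttggaaaaAgggcatcatttctc

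The next sites lie in coding exons of the canonical transcript and are named by the residue and codon that the edited base changes. They are shown because they were the most recurrent coding sites, or, for DACT3, because they were found in every sample of 1 time course described below.
BLCAP Y2C (chr20:37519156-37519184, minus strand): ggcagagatcatgtAttgcctccagtggc
BLCAP Q5R (chr20:37519147-37519175, minus strand): catgtattgcctccAgtggctgctgcccg
SON L594L (chr21:33550999-33551027, plus strand): gcaactggggcactAgagttgcctgggcc
COG3 I635V (chr13:45516222-45516250, plus strand): tcaccattaaggaaAtttccctggacctc
AKAP11 N1759D (chr13:42313034-42313062, plus strand): cttcctctggcagtAatggtaacagcagt
NEIL1 K242R (chr15:75353731-75353759, plus strand): tcccacagggggcaAaggctacgggtcag
DACT3 R259G (chr19:46649583-46649611, minus strand): cggcgctcctgcgcAggcgccgccgccgg

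The last sites lie in exons of lncRNAs, each an exon of an alternative transcript that is intronic in the canonical one. They are shown because LINC-PINT A was the most recurrent of this class, and the LINC00624 pair belongs to the gene with the most lncRNA exon sites.
LINC-PINT A (chr7:130944851-130944879, minus strand): tgtttaagaattaaAggaagatgagctag
LINC00624 A (chr1:147383584-147383612, minus strand): tatgtccaatacctAtgtcttgagaagct
LINC00624 B (chr1:147383591-147383619, minus strand): aactgaatatgtccAatacctatgtcttg

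The classes were checked against GENCODE 44, which is a later release than the one used for the list. All 34 CDS sites fell in the coding region of at least 1 transcript, and all 32 lncRNA exon sites fell in an exon of a lncRNA. Of the 145 sites listed as 5' UTR, only 19 (13.1%) were in the 5' UTR of a transcript with a coding region. A further 27 were in a 3' UTR, 3 in coding sequence and 96 (66.2%) in exons of transcripts that have no coding region, where no untranslated region is defined. Those 96 were exons of transcripts of the retained intron type for 58 sites and of protein-coding genes with no defined coding region for 38. In comparison, 281 of the 291 sites listed as 3' UTR (96.6%) lay in a 3' UTR in GENCODE 44. The label "5' UTR" thus stands below for the class in the list, and for most of its sites it does not describe the position in a translated transcript.

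**Figure D1:**
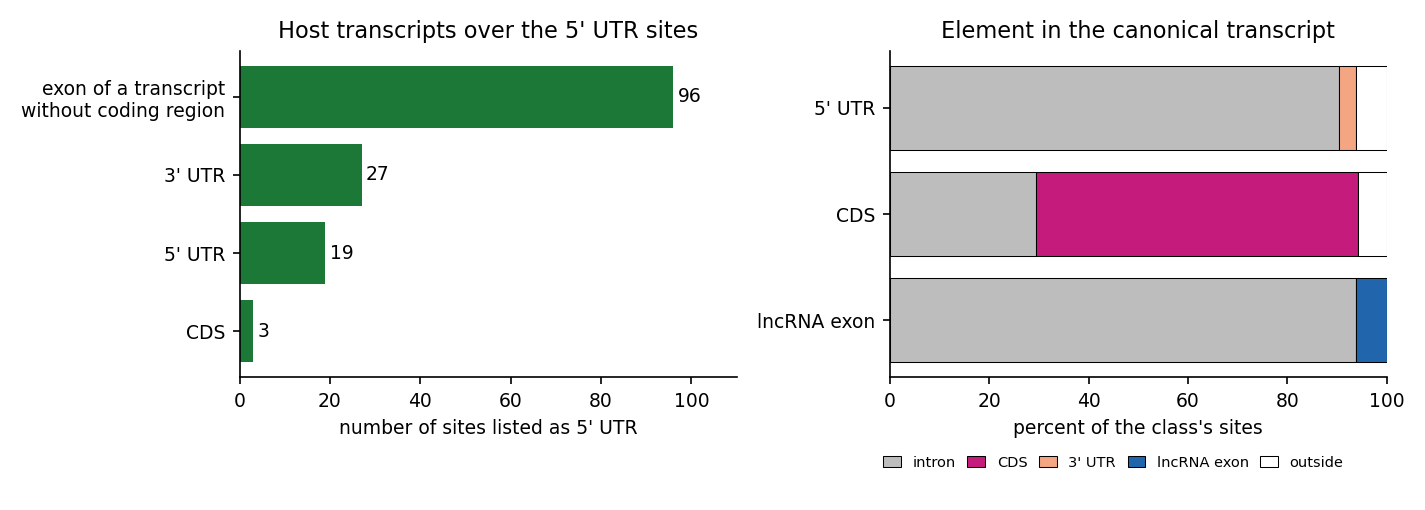
Left, number of the 145 sites listed as 5' UTR in each kind of host transcript element in GENCODE 44 (bars start at 0); right, percent of the sites of each class by the element of the Ensembl canonical transcript. Only 19 of the 145 sites were in a 5' UTR of a coding transcript, and the canonical transcript is intronic at 131 of the 5' UTR, 10 of the CDS and 30 of the lncRNA exon sites.

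The 19 sites in a 5' UTR of a coding transcript had 11 host genes. They included 4 sites of DEF8, 3 of CARD8, 3 of PPP2CB and 2 of TOP1, the gene of topoisomerase I. Their median over sites was 4 samples with a level and a median level of 0.422, whereas the 96 sites in transcripts without a coding region had 5 samples and a level of 0.246. The most recurrent of the 19 was in CTDSP1, found in 22 samples with a median level of 0.171, and the one with the highest level among those found in at least 5 samples was DEF8 A, found in 14 samples at 0.60 to 0.90 with a median of 0.75.

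Most sites were known before. Of the 211 sites, 203 (96.2%) were annotated, against 3160 of the 4149 listed sites (76.2%). The study's filter for unannotated sites depended on the genomic element. A call by RED-ML sufficed in introns and very long intergenic non-coding RNAs, while predicted sites elsewhere also needed SPRINT. These shares therefore describe that filter as well as the sites. The 8 unannotated ones were 4 of the 5 coding sites of OR51I1, an olfactory receptor gene, and 1 site each in HSP90B1, ZNF83, EIF4E and CD164. The study describes the unannotated OR51I1 sites as called by REDItools and RED-ML, or as adjacent to such a site. It reports that Sanger sequencing showed editing at them. The rule with SPRINT thus does not describe how these OR51I1 sites were found, and the shares also reflect Sanger sequencing. All 3 detection tools called 48 of the 145 sites of 5' UTRs and 10 of the 32 of lncRNA exons but none of the 34 CDS sites, of which 25 were called by REDItools and RED-ML together.

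Recurrence was low for most sites and very high for a few. The median number of samples with a level was 4 of 96 for the 5' UTR sites (interquartile range 2 to 9), 5 for the CDS sites (2 to 11.75) and 5 for the lncRNA exon sites (2.75 to 7.5). The median over all listed sites was 3, that of 3' UTR sites 7 and that of intron sites 3, with the 57 sites known from Sanger sequencing alone, none of them exonic sites described here, left out. A level in at least 10 samples was recorded for 33 of the 145 5' UTR sites (22.8%), 10 of the 34 CDS sites (29.4%) and 7 of the 32 lncRNA exon sites (21.9%). The corresponding share was 41.5% for 3' UTR sites, 11.8% for intron sites and 14.1% for all listed sites. Because a predicted site entered the list only with levels in more than 1 sample of the whole study, these numbers describe the list and not all editing in the cells. The 2 sites with no level in any of the 96 samples were both in B4GALT2.

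The lncRNA exon sites had the highest median level of the 3 classes. For each site the median over the samples with a level was taken, and the median of these values was 0.264 for 5' UTR sites (interquartile range 0.163 to 0.429), 0.217 for CDS sites (0.146 to 0.337) and 0.473 for lncRNA exon sites (0.198 to 0.547). It was 0.2 for 3' UTR sites, 0.400 for intron sites and 0.376 over all listed sites. A median level of at least 0.5 was seen for 27 5' UTR sites, 6 CDS sites and 16 lncRNA exon sites. A predicted site entered the list only if its highest level in the whole study was above 0.2. With few levels per site, these medians thus describe the list and not all editing in the cells. No test was made over sites, since neighbouring sites share reads and transcripts.

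**Figure D2:**
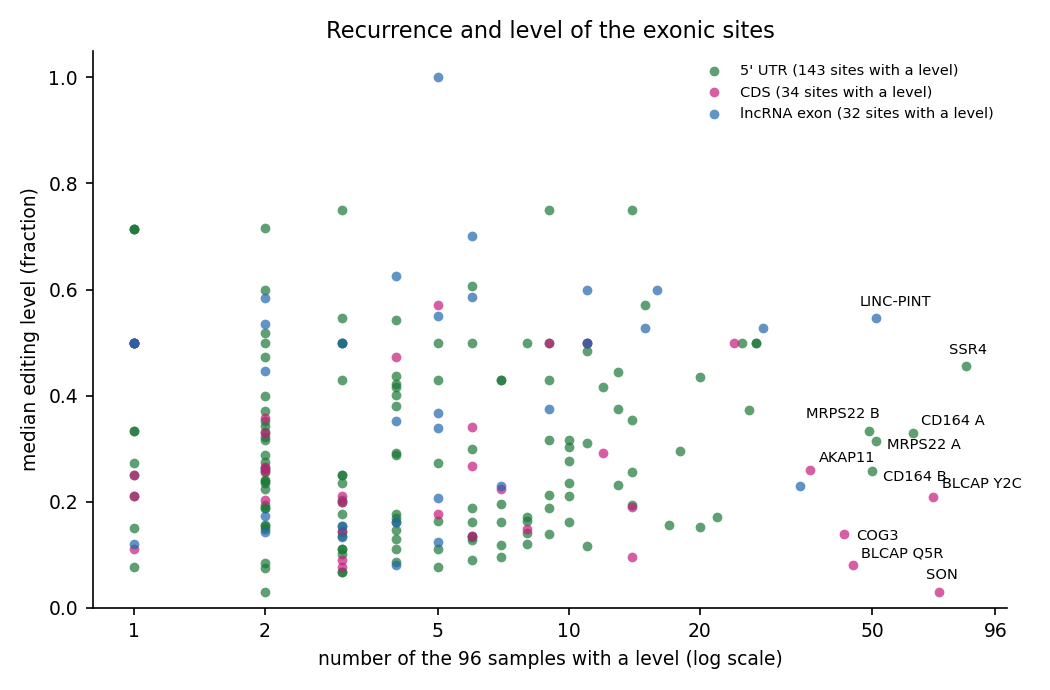
Each point is 1 of the exonic sites, with the number of the 96 samples with a level on the x axis (log scale) and the median editing level over those samples on the y axis; colors give the class, and the most recurrent sites are named. Sites found in 50 or more samples had median levels from 0.03 (SON L594L) to 0.545 (LINC-PINT), and the site at a median level of 1 was found in 5 samples.

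The 211 sites had 91 host genes, of which 55 carried a single site. Zinc finger genes, whose symbols start with ZNF, were 5 of the hosts and held 16 sites. In the 5' UTR class, 64 genes were hosts and 44 sites fell in the leading 5, namely MRPS22 (11 sites), B4GALT2 (9), CD164 (8), NAA20 (8) and SPG7 (8). MRPS22 encodes a mitochondrial ribosomal protein, CD164 a sialomucin of blood progenitors, NAA20 the catalytic subunit of an N-terminal acetyltransferase and SPG7 a mitochondrial protease. The 34 CDS sites had 20 hosts, with 5 sites each in OR51I1 and SPG7 and 3 in ZNF551. The 32 lncRNA exon sites had only 12 hosts, and LINC00624 alone held 11 of them, followed by CCDC144NL-AS1 (5), LINC-PINT (5) and ENSG00000228509 (3).

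Most sites had listed neighbours. When sites of 1 strand within 100 bases of each other were joined, the 5' UTR sites fell in 78 clusters, and 50 sites (34.5%) had no listed neighbour. The share without a neighbour was 50% for CDS sites, 37.5% for lncRNA exon sites, 17.9% for 3' UTR sites and 37.3% for intron sites. The largest cluster was in SPG7, with 10 sites in 104 bases (chr16:89529183-89529286) of which 5 were listed as CDS and 5 as 5' UTR. At least 1 of the 10 was found in 21 samples, and no single site of the cluster was found in more than 12. The NAA20 sites formed 1 cluster of 8 sites in 82 bases, each found in 2 to 10 samples with site medians between 0.0748 and 0.277. Altogether, 21 of the 211 sites shared a cluster with sites listed as intronic.

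In the CD164 and MRPS22 clusters, 1 or 2 sites carried most of the levels. The CD164 cluster held 7 sites in 228 bases, and at least 1 of them was found in 68 samples and at least 2 in 48. CD164 A and CD164 B were found in 62 and 50 samples, whereas the other 5 were found in 2 to 20. Likewise, of 7 MRPS22 sites in 130 bases, MRPS22 A was found in 51 samples and the others in 2 to 10, and of 4 sites in 74 bases upstream of it, MRPS22 B was found in 49 and the others in 2 to 7. The levels followed the same order, with median levels of 0.315 and 0.333 for MRPS22 A and B against 0.111 to 0.236 for the other 9. Both clusters of MRPS22 together gave a level in 67 samples. Other clusters were more even, as in PPIF, whose 3 sites in 35 bases were found in 5 to 7 samples each, and in the SPG7 cluster of 10 sites in 104 bases, where the sites were found in 2 to 12 samples each.

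Adjacent adenosines were both listed in 15 pairs, and the sites of 14 pairs were seen together in at least 1 sample. In 53 such observations, the 3' adenosine had the strictly higher level in 15. The rest include equal levels, which were not counted apart, so they are not all cases of a higher 5' adenosine. All 7 joint samples of CD164 B and its 5' neighbour had the higher level at CD164 B. For the NEIL1 pair and for the SPG7 pair with 10 joint samples, listed in 5' UTRs, the 3' adenosine was strictly higher in none of 7 and none of 10 joint samples, respectively. Equal levels may be among these.

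The base before the edited adenosine was a G for 4.14% of the 5' UTR sites, 2.94% of CDS sites and 6.25% of lncRNA exon sites, against 3.84% of all listed sites. This avoidance of a 5' G is a known property of ADAR substrates. A U came before the edited adenosine for 51.7% of 5' UTR, 41.2% of CDS and 37.5% of lncRNA exon sites. Over all listed sites this share was 49.1%. The Wilson 95% intervals of the CDS and lncRNA exon shares, 26.4 to 57.8 and 22.9 to 54.7, covered that value. The base after the edited adenosine was a G for 47.6% of 5' UTR sites (Wilson 95% interval 39.6 to 55.7), 47.1% of CDS sites (31.5 to 63.3) and 62.5% of lncRNA exon sites (45.3 to 77.1), against 43.98% of all listed sites. The intervals cover counting error only, and neighbouring sites are not independent. Uninterrupted stretches complementary to the 41 bases around a site, searched within 1000 bases without G-U pairs, had a median length of 9 bases for 5' UTR sites, 8 for CDS sites and 9 for lncRNA exon sites. A stretch of 12 or more bases was present for 20.7%, 8.82% and 21.9% of these sites against 28.8% of all listed sites, and the longest, 39 bases, was beside a TOP1 site. Searched within 300 bases, such a stretch was present for 0.690%, 0% and 3.13% of the sites against 6.22% of all listed sites, so the shares rest on the distance searched.

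The 11 sites found in most samples were 5 of the 5' UTR class, 5 CDS sites and 1 lncRNA exon site. The SSR4 site, in the gene of a subunit of the translocon-associated protein complex, was found in 82 of 96 samples, 72 parental and 10 derivative, with levels from 0.165 to 1 and a median of 0.455. Its levels ran lower in some sets of samples than in others. It lay between 0.178 and 0.717 (median 0.315) in the 20 samples after the transcription inhibitors, between 0.667 and 0.875 in the 5 Imatinib samples, and between 0.4 and 1 (median 0.833) in the 10 derivative samples with a level. These sets differ in treatment, line and time of culture, which cannot be told apart here.

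CD164 A had levels from 0.08 to 0.793 with a median of 0.329 over 62 samples, and CD164 B from 0.09 to 0.889 with a median of 0.258 over 50. MRPS22 A had a median of 0.315 (0.11 to 0.903). In the DMSO samples of 12 to 48 h it lay between 0.571 and 0.819, whereas 3 samples at 0 h of the inhibitors had 0.11, 0.118 and 0.15. So the same site spanned most of its range between sets of parental samples. LINC-PINT A, in an exon of a lncRNA induced by p53, was found in 51 samples with a median of 0.545 (0.203 to 0.889), and LINC-PINT B in 28 with a median of 0.528 (0.232 to 0.875).

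**Figure D3:**
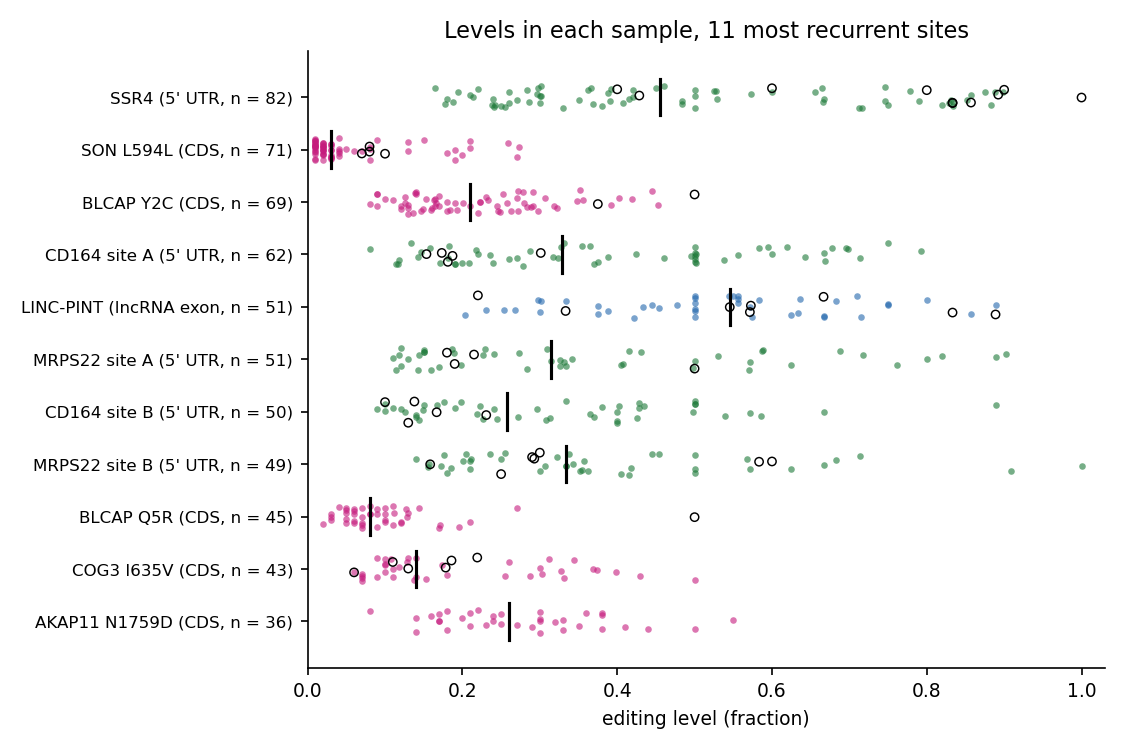
Editing level (fraction, x axis) of the 11 most recurrent sites in each sample with a level; filled points are samples of the parental line, colored by class, open points are derivative lines, and the vertical bar is the median. SON L594L had most of its 71 levels at or near 0.03, while SSR4 spread from 0.165 to 1.

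Of the 34 listed coding sites, editing would change the amino acid at 23 (missense) and be synonymous at 11. The study reports that Sanger sequencing showed editing at only some of the listed CDS sites, and that others failed that test. A listed site is thus not proof of editing, and the counts here include the sites whatever their Sanger result. The median over the missense sites was 6 samples and a level of 0.21, and over the synonymous ones 5 samples and a level of 0.258. The edited base was at position 1 of the codon for 10 sites, at position 2 for 11 and at position 3 for 13. Only 22 of the 34, 16 missense and 6 synonymous, lay in the coding region of the canonical transcript. The other 12 were coding in alternative transcripts, among them the 5 SPG7 sites, which lay in a transcript subject to nonsense-mediated decay whose coding region has no annotated start.

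From a list of 26 genes known for recoding, 7 hosted exonic sites, 6 of them with CDS sites. BLCAP, a gene with conserved recoding at its N-terminus, had Y2C in 69 samples (67 parental, 2 derivative) at 0.08 to 0.5 with a median of 0.210, and Q5R in 45 samples at 0.02 to 0.5 with a median of 0.08. COG3 I635V, in a subunit of the Golgi tethering complex COG, was found in 43 samples at 0.06 to 0.5 with a median of 0.14. CDK13 Q35R, in a kinase that phosphorylates RNA polymerase II, was found in 14 samples with a median of 0.095. IGFBP7 K95R, in a binding protein of insulin-like growth factors, was found in 4 samples with a median of 0.472. NEIL1 K242R, in a DNA glycosylase, was found in 24 parental samples and no derivative sample, with a median of 0.5 (0.2 to 0.833), and the same codon edited at its last base, K242K, in 9 with a median of 0.5. FLNA had no CDS site here, and its 3 sites were of the 5' UTR class, found in 3 to 8 samples.

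The most frequent coding site, SON L594L, was synonymous and the lowest in level. SON, a splicing cofactor of nuclear speckles, had this level in 71 samples, 67 of them parental, at 0.01 to 0.273 with a median of 0.03. Along the samples at 12, 24, 36 and 48 h its level was 0.03, 0.13, 0.21 and 0.259 with DMSO, and 0.04, 0.15, 0.21 and 0.273 with Imatinib. The samples named for Etoposide had 0.07, 0.2, 0.19 and 0.271, and those named for Romidepsin 0.09, 0.13, 0.19 and 0.18. The 12 h sample was the lowest of each of the 4 series, the vehicle included. With 1 sample at each time these series have no replicate check, and the sites found per sample of all elements also numbered 154 at 12 h and 633 at 48 h with DMSO.

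AKAP11 N1759D, in an anchoring protein of protein kinase A, was the only site found in more than 30 samples with none of them from a derivative line. It had levels in 36 of 80 parental samples from 0.08 to 0.55 with a median of 0.26. DACT3 R259G and S298G, in an antagonist of Wnt signaling, were found in 11 and 7 samples with medians of 0.5 and 0.223. The 5 sites of OR51I1, which lies beside the beta-globin locus, were N97D in 14 samples with a median of 0.189, V285V in 8, L132L in 6, K238R in 3 and K238E in 1. All samples with an OR51I1 level were of the parental line.

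The remaining coding sites were seen less often. SPG7 K206E was found in 12 samples with a median of 0.292, K206R in 6, R205G in 3, and Y201C and K200E in 2 each, with residues counted from the first whole codon of the incomplete coding region. ZNF551 Y54C was found in 6 samples with a median of 0.135, and Q40R and Q40Q, 2 bases of 1 codon, in 1 each at 0.5. GRAMD4 had the highest median level among coding sites found in at least 5 samples, 0.571 over 5 samples, at a synonymous leucine codon. RAPGEF2 S20S was found in 5 samples, LRPPRC N838S, KPNA1 K158K and SH3BP2 R561G in 3 each, AKR1C1 R194R, ZNF586 I51M and ZNF891 K327K in 2 each, and ZNF235 I186M and ZNF586 L21L in 1 each. The medians of these 9 sites were between 0.0769 and 0.329.

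At the ends of the level scale among sites found in at least 5 samples, the lowest of the 5' UTR class was CBX3, the gene of a heterochromatin protein, with a median of 0.0761 in 5 samples. The highest in that class were DEF8 A and B4GALT2 A, both at a median of 0.75. Among lncRNA exon sites both ends were in LINC00624, where 1 site had a median of 0.125 and another of 1, each over 5 samples.

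The number of exonic sites found in a sample ran from 3 to 64 with a median of 16, and from 3.26% to 21.6% (median 7.71%) of all sites found in that sample. Parental samples had a median of 17.5 sites (7.29% of those found) and derivative samples a median of 9 (13.1%). The total of listed sites found per sample ran from 30 to 633, with a median of 260 in parental and 62.5 in derivative samples. Across the 96 samples the exonic sites found followed that total (Pearson r 0.803, Spearman rho 0.843), which is a description since both counts come from the same libraries. CDS sites were scarce in the derivative lines, with 0 to 4 found per sample (median 0.5) against 1 to 12 (median 5) in parental samples, whereas lncRNA exon sites had a median of 2 in both.

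The samples named for Etoposide at 12, 24, 36 and 48 h had 32, 42, 52 and 64 exonic sites, which was 17.4%, 15.97%, 15.5% and 11.9% of all sites found in them. The samples at the same times had 15, 38, 34 and 46 sites with DMSO, 11, 28, 43 and 34 with Imatinib, and 18, 20, 37 and 46 in those named for Romidepsin. As a share of all sites found, these 12 samples ran from 5.88% to 12.7%, and only the share at 48 h of those named for Etoposide fell within that range. The names of the Etoposide and Romidepsin time courses differ between the labels and a supplementary table of the study, so which drug these samples received cannot be settled here and no test was made between them.

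LINC00624, a lncRNA gene on chromosome 1, gave 7 to 9 of the exonic sites in each of these samples. Of its 11 sites, 7, 9, 8 and 9 were found in the samples named for Etoposide at 12 to 48 h and none in the other 12 samples of the same times. Without this gene, an alternative chosen after seeing the data, the exonic sites were 14.1%, 12.99%, 13.5% and 10.4% of all sites found in the 4 samples, against the same 5.88% to 12.7% in the other 12. The remaining lncRNA exon sites numbered 3, 3, 2 and 4, beside 2, 4, 3 and 6 with DMSO. In the 5' UTR class the 4 samples had 14, 22, 30 and 40 sites, beside 9, 24, 27 and 33 with DMSO, and in the CDS class 8, 8, 12 and 11, beside 4, 10, 4 and 7. LINC00624 A had levels of 0.556, 0.701, 0.937 and 0.875 in these 4 samples, and LINC00624 B had 0.5, 0.591, 0.527 and 0.48. The site with the highest median, at chr1:147382802, had a level of 1 in all 4, while that at chr1:147383590, in the same cluster as LINC00624 A, had 0.0909, 0.172, 0.43 and 0.421. The gene was not limited to these samples, since at least 1 of its sites was found in 22 of the 96, with 6 sites in DMSO.3h_DMSO.6h, 6 in Alpha_Amanitin.2h and 5 in LINE.Water.2d.

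In all, 17 of the 211 sites were found in each of the 4 samples named for Etoposide, against 10 for DMSO, 3 for Imatinib and 8 for Romidepsin. Of the 17, 5 were found in none of the other 12 samples, and all 5 were in LINC00624. The same counts were not made over all listed sites, so whether they are particular to the exonic sites cannot be told. The other 12 included both DACT3 sites, which were also found in 2 and 1 of the Imatinib samples and 2 and 1 of those named for Romidepsin but in no DMSO sample of these times. DACT3 R259G had 0.377, 0.378, 0.515 and 0.689 and S298G had 0.1, 0.16, 0.223 and 0.232 along the 4 samples named for Etoposide. The abundance of the host transcripts was not measured in the list, and its part in these counts was not tested.

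**Figure D4:**
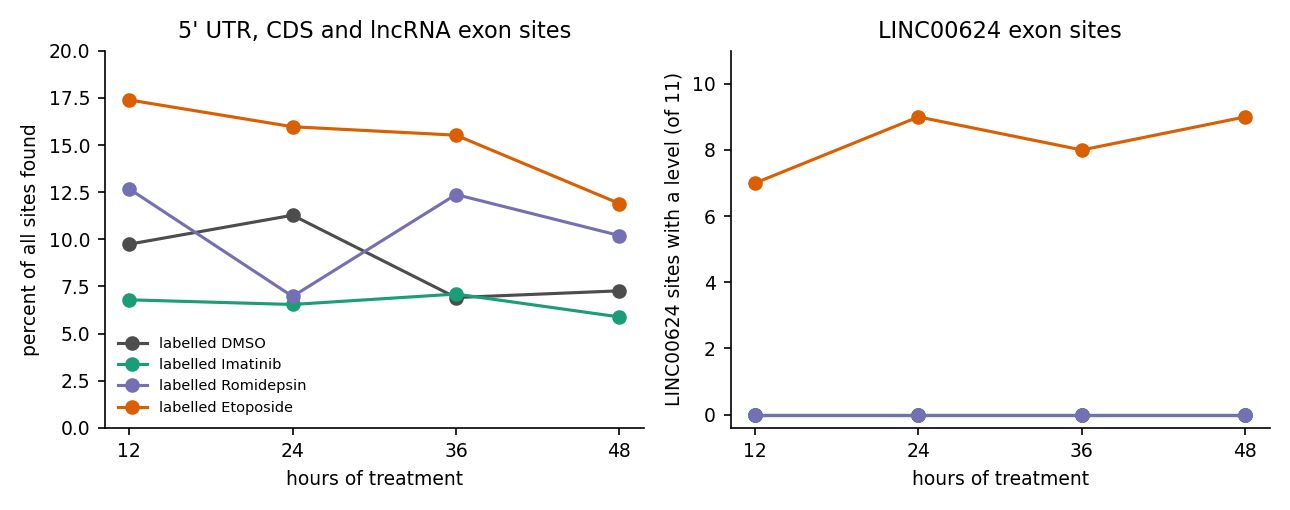
Left, exonic sites as a percent of all listed sites found in each sample (y axis, from 0), by hours of treatment (x axis) in 4 time courses of 1 sample per point; right, number of the 11 LINC00624 sites with a level in the same samples. The samples labelled Etoposide had 7 to 9 LINC00624 sites and the other 12 had 0, so that their lines coincide.

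The transcription inhibitor samples ask which levels are still recorded once transcription is blocked. In general, the number of exonic sites found did not move one way, with 11 to 23 sites (median 16) in the 7 samples at 0 h and 12 to 30 (median 17.5) in the 20 samples after inhibition. Each site found in at least 5 of these samples was tested for a difference in how often it was found (two-sided Fisher's exact test), with Benjamini-Hochberg adjustment over all 418 listed sites tested, of which 7 (1.67%) passed an adjusted p of 0.05, all found less often after inhibition. With 7 samples at 0 h and 20 later, a gain must be seen in many more samples than a loss to pass. The 2 directions were thus not equally easy to call. Of 30 exonic sites tested, 1 passed, CD164 A. By direction, 20 of the 30 were found in a larger share of samples after inhibition, 9 in a smaller one and 1 in the same, with a median difference of 14.3 percentage points against 5.71 over all 418 sites. The count by direction was not made over all 418. With Actinomycin_D alone, 13 of 24 exonic sites had a larger share, 9 a smaller one and 2 the same. Their median difference was then 12.1 percentage points, below the 15.7 over all 322 sites tested.

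CD164 A was found in 7 of 7 samples at 0 h and in 3 of 20 after inhibition, a fall of 85 percentage points (Fisher's exact test, p = 0.000135, adjusted p = 0.0155). Its levels at 0 h were 0.08, 0.118, 0.134, 0.19, 0.327, 0.364 and 0.5, and the 3 later levels were 0.46, 0.5 and 0.714. The call was lost when samples were compared within sets of the same pretreatment and inhibitor (adjusted p = 0.102) and when a level of at least 0.1 was required (adjusted p = 0.0619). With Actinomycin_D alone the site was found in 5 of 5 and then 1 of 14 samples (adjusted p = 0.0151). CD164 B, in the same cluster, was found in 1 of 7 samples at 0 h and in 4 of 20 after inhibition, and the other 6 sites of the gene in at most 2 of the 20.

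By the same test, 5 of the 30 exonic sites, CD164 A included, had an unadjusted p under 0.05, beside 55 of all 418 sites tested. The exonic ones other than CD164 A did not pass the adjustment. The CLN6 site, in a gene of the lysosomal storage disease ceroid lipofuscinosis, was found in 6 of 7 samples at 0 h and 4 of 20 later (adjusted p = 0.122). PDCD2 was found in 0 of 7 and 12 of 20 (adjusted p = 0.170), and NEIL1 K242R in 0 of 7 and 10 of 20 (adjusted p = 0.259). The 12 PDCD2 levels ran from 0.25 to 0.778 and the 10 of NEIL1 K242R from 0.2 to 0.606. PDCD2 and NEIL1 K242R thus had no level at 0 h in any pretreatment, although the levels recorded later were not low.

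The most recurrent sites were found on both sides. BLCAP Y2C was found in 7 of 7 and 20 of 20 samples and BLCAP Q5R in 7 of 7 and 18 of 20. SSR4 was found in 5 of 7 and 20 of 20 (adjusted p = 0.352), SON L594L in 2 of 7 and 15 of 20 (adjusted p = 0.352) and LINC-PINT A in 5 of 7 and 5 of 20 (adjusted p = 0.352), all by Fisher's exact test. None of these 3 differences passed the threshold.

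**Figure D5:**
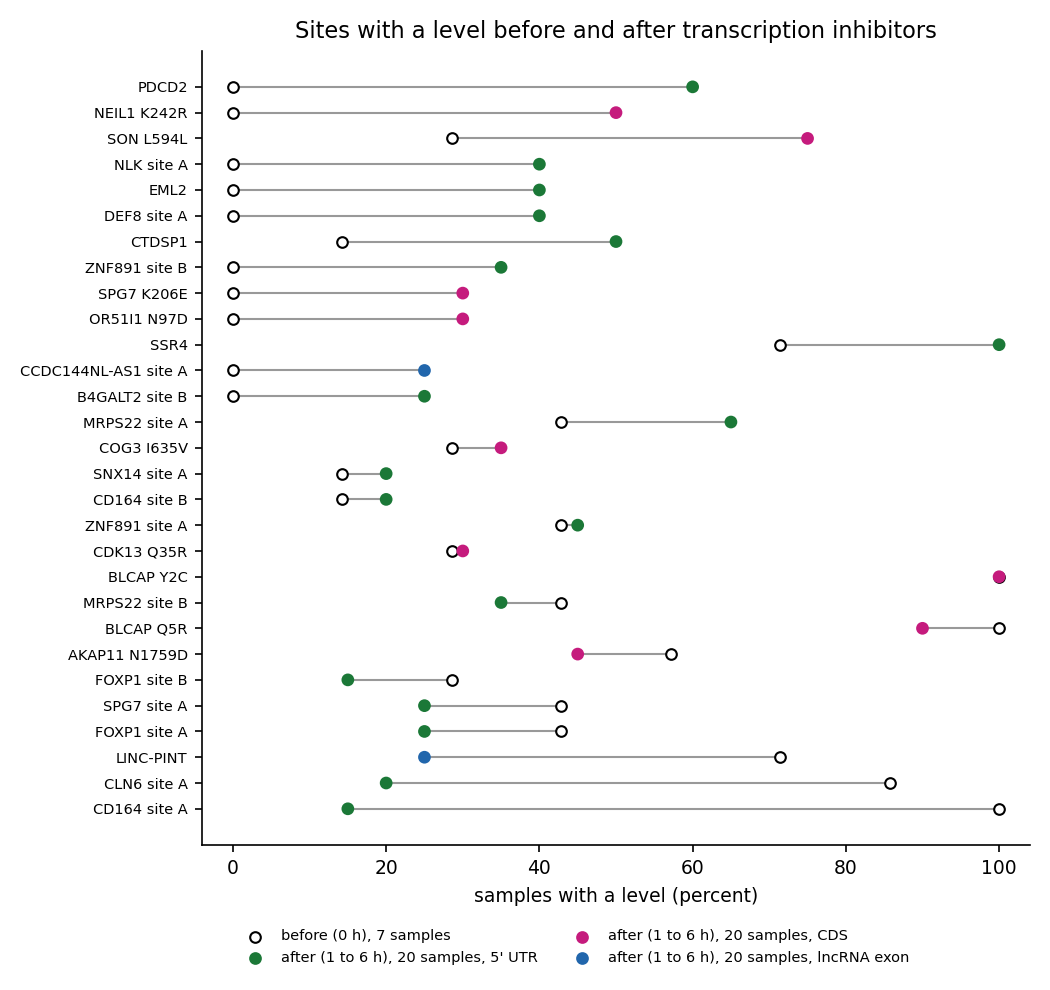
Percent of samples with a level (x axis) before (0 h, open points, 7 samples) and after (1 to 6 h, filled points colored by class, 20 samples) the transcription inhibitors for 29 of the 30 exonic sites tested, ordered by the difference. CD164 site A fell from 100% to 15%, and BLCAP Y2C was at 100% in both.

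The levels were compared by limma, with no level taken as missing, for sites with at least 3 levels on either side. Over all 134 sites tested, 15 (11.2%) passed an adjusted p of 0.05, all with higher levels after inhibition, whereas none of the 12 exonic sites tested did. Of the 12, 5 had an unadjusted p under 0.05 in limma, all higher after inhibition. Over all 134 sites tested, 44 had an unadjusted p under 0.05 in limma. MRPS22 A had a mean level of 0.126 ± 0.0212 (SD, n = 3) at 0 h and 0.304 ± 0.105 (SD, n = 13) later, a difference of 0.18 with a standard error of 0.061 (limma adjusted p = 0.0598). LINC-PINT A had 0.416 ± 0.154 (SD, n = 5) and 0.682 ± 0.163 (SD, n = 5), with a limma adjusted p of 0.0670. Its 5 levels at 0 h were 0.298, 0.333, 0.375, 0.389 and 0.683 and the later ones 0.5, 0.556, 0.667, 0.8 and 0.889, so the groups overlapped through 1 sample, DMSO with Alpha Amanitin at 0 h. With Actinomycin_D alone, both LINC-PINT A (limma adjusted p = 0.0152) and MRPS22 A (limma adjusted p = 0.0457) passed the threshold, where 20 of 87 listed sites (23%) did. Neither MRPS22 A nor MRPS22 B had a level in the Alpha Amanitin samples of this comparison. The fit of MRPS22 A thus used the same 13 and 3 levels as with both inhibitors, and only the other sites fitted beside it differed. With a term for the matched pretreatment and inhibitor, 2 of 11 exonic sites tested had an unadjusted p under 0.05 in limma, both of them in MRPS22 (limma adjusted p = 0.0974 for both). Over all 132 sites tested in that fit, 37 did. LINC-PINT A then had a difference of 0.241 (limma adjusted p = 0.270).

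MRPS22 B had 0.155, 0.156 and 0.172 at 0 h and 0.25 to 1 in 7 later samples (limma adjusted p = 0.0839). These few levels did not overlap. Overlap was not counted over all 134 sites tested, so the separation is not shown to be particular to MRPS22 B. CD164 A, found in few samples after inhibition, had the same direction in those it was found in, 0.245 ± 0.155 (SD, n = 7) at 0 h and 0.558 ± 0.136 (SD, n = 3) later (limma adjusted p = 0.0598). Its later levels of 0.46 and 0.714 were from DMSO with Alpha Amanitin, which already had 0.5 at 0 h. With the term for matched pretreatment and inhibitor, the difference was 0.182 (limma adjusted p = 0.417). SPG7 A was the fifth, with 0.415 ± 0.0741 (SD, n = 3) and 0.704 ± 0.217 (SD, n = 5), and a limma adjusted p of 0.140. The 3 coding sites tested differed by less than the spread between samples. BLCAP Y2C had 0.181 ± 0.0502 (SD, n = 7) and 0.196 ± 0.0758 (SD, n = 20), BLCAP Q5R had 0.08 ± 0.0245 (SD, n = 7) and 0.0697 ± 0.0341 (SD, n = 18), and AKAP11 N1759D had 0.208 ± 0.09 (SD, n = 4) and 0.246 ± 0.0888 (SD, n = 9). The median difference over the 12 sites was 0.127 and that over all 134 was 0.0984.

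Doxycycline against water in the derivative lines, which asks whether inducing the construct changed editing, gave no call for an exonic site. A site found in only 4 of these samples, the minimum for the test, could not reach an unadjusted p under 0.05 by Fisher's exact test. For such sites the test could not decide. Of 59 listed sites tested by Fisher's exact test, 0 (0%) passed the adjusted threshold and 0 had an unadjusted p under 0.05, and 12 of them were exonic sites. For levels, limma on 19 listed sites, 4 of them exonic, also called 0 (0%), with 0 at an unadjusted p under 0.05. SSR4 had the largest difference of the 4, with a mean of 0.621 in 4 doxycycline samples and 0.843 in 6 water samples (limma adjusted p = 0.869). These arms pool 6 lines, and the few sites found per derivative sample left only these sites to test.

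Imatinib against DMSO at 6 to 48 h gave no calls either. Fisher's exact test called 0 of 320 listed sites (0%), with 4 at an unadjusted p under 0.05, and 29 of the tested sites were exonic. With 5 samples against 6 the smallest exact p is 0.00216, which becomes 0.693 after adjustment for a single site, so that no site could pass unless at least 14 reached that p. The exonic one of those 4 was AKAP11 N1759D, found in 0 of 5 Imatinib and 5 of 6 DMSO samples (exact p = 0.0152, adjusted p = 1). In the DMSO samples its levels ran from 0.16 to 0.3. Limma called 0 of 104 sites (0%) for the level, with 2 at an unadjusted p under 0.05, and 10 of the tested sites were exonic. SSR4 was one of these 2, with levels between 0.667 and 0.875 in 5 Imatinib samples and between 0.26 and 0.898 in 4 DMSO samples (limma adjusted p = 0.933), and the groups overlapped.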

How the data were processed

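Editing levels were taken from the list of editing sites that the authors deposited, in which each value is a fraction of edited reads averaged over the tools that detected the site in a sample. Per the study's methods and the submitters' processing notes, the authors aligned reads to GRCh38 with TopHat2 2.1.1, handled alignments with Picard 2.0.1 and SAMtools 1.9, ran REDItools, RED-ML and SPRINT, and filtered out variants (common ones and those of K562), repeats and regions of low mappability. Of the columns of samples, 96 were used, and 34 other columns were not used. The untreated sample was matched to its column as a group only. Since depth at a site is unknown, single levels carry no interval, and intervals on shares are Wilson 95% intervals that cover counting error only.

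Host elements, codons and sequences were read from GENCODE 44 and hg38 on the listed strand. Where several transcripts overlapped a site listed as 5' UTR, a 5' UTR was taken before CDS and CDS before 3' UTR. Clusters joined sites within 100 bases. Found or not found was compared by Fisher's exact test (scipy 1.17.1) and levels by limma 3.58.1 on the fraction scale, both with Benjamini-Hochberg adjustment over all listed sites tested, at an adjusted p of 0.05. Sites entered the found test with a level in at least 5 samples (inhibitors) or 4 (other comparisons). Both procedures were tested on simulated data. For the inhibitor samples, the block compared samples within the same pretreatment and inhibitor (7 sets). Samples are not stated to be separate cultures. The limma p-values measure the spread between samples of an arm, which mixes treatments, lines or times and may also be technical. Fisher's exact test measures no spread and treats each sample as an independent count of found or not found.

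Named sites were the hosts with most sites in each class, the 10 most recurrent sites, every CDS site, sites past the adjusted threshold, the highest and lowest median level in each class, and hosts from a list of recoding targets. Sites outside this rule (among them CTDSP1, CLN6, PDCD2, CARD8, PPP2CB and TOP1) were named after their values were seen. One lncRNA exon site is counted but not reported here by itself. The sites and lists were chosen with earlier results of these data known. Alternatives were a minimum level of 0.1, no minimum number of samples, annotated sites only, 1 site per cluster, sites of at least 2 tools, other cluster distances, parental samples only, Actinomycin_D only, an arcsine scale, the block, leaving out samples and, chosen after seeing the data, leaving out the LINC00624 sites.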

Additional observations from a re-analysis of the deposited data

Results flagged for a closer look

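In 53 groups of 4 to 10 samples, values were screened for a sample far from the rest by Dixon's 95% criterion. The values were levels of the 10 most recurrent exonic sites, and the number and share of exonic sites found per sample. Such a sample was present in 4 groups, all of them groups of levels, where chance alone gives about 1 in 20 groups. The level of SSR4 in the Imatinib sample at 36 h was 0.667, below the other 4 Imatinib samples, of which the nearest had 0.832. At 0 h of the transcription inhibitors, the sample of Etoposide and Alpha Amanitin had the highest level at both BLCAP sites, with 0.28 for Y2C (the nearest of the other 6 samples had 0.193) and 0.13 for Q5R (nearest 0.09). The sample of DMSO and Alpha Amanitin at 0 h had 0.683 for LINC-PINT A, where the nearest of the other 4 samples had 0.389. All 3 of the inhibitor values came from the 2 samples of Alpha Amanitin at 0 h. Their cause was not tested.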

How the results depend on the processing

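The class medians of recurrence and level moved by less than 1 SD between sites under every alternative run, with recurrence between 3 and 6 samples. The median level stayed between 0.246 and 0.307 for 5' UTR sites, 0.21 and 0.261 for CDS sites and 0.367 and 0.527 for lncRNA exon sites, where the lowest value came from sites of at least 2 tools. Complementary stretches searched within 300 bases instead of 1000 had a median of 7 bases for lncRNA exon sites instead of 9. The single inhibitor call, CD164 A, was lost in 3 alternatives, and the exonic sites called went from 1 to 0, with a minimum level of 0.1 (adjusted p = 0.0619), with no minimum number of samples (adjusted p = 0.0922, over 2481 sites tested) and under the replicate block (adjusted p = 0.102). The difference itself was -70.7 percentage points with the minimum level and -85 in the other alternatives of the 3. Over all listed sites the count of called sites was 7, and 6, 0 and 0 under those alternatives and 12 with Actinomycin_D alone. For levels, 2 exonic sites were called with Actinomycin_D alone against 0 with both inhibitors. MRPS22 A, among them, had the same levels in both fits. Over all listed sites, 15 of 134 were called with both inhibitors, 20 of 87 with Actinomycin_D alone and 6 under the block. The block, by pretreatment and inhibitor, line and time, or time, changed no other call of an exonic site. Leaving out each sample in turn in the Imatinib comparison gave from 0 to 0 exonic sites called for found and for level. Single libraries were not left out of the inhibitor and doxycycline comparisons. The list gives no depth at a site, so a missing level is not evidence of no editing.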
